A study of Homo sapiens with 8 samples.

Results

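The 10 genes described here encode telomerase components, factors that process the telomerase RNA, and proteins of shelterin, the complex that coats telomeres. They were taken by gene symbol from a table of 17561 genes, and 10 of 10 listed symbols were present. TERT was listed because it is a reported target of GRHL2, and PARN was included because its values differed between the plasmids in these libraries. The difference of PARN is therefore a description, and a test of it on these libraries would use the values that chose it. The other 9 genes were listed by function.

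The libraries came from HepG2, a human hepatocarcinoma cell line, cultured with insulin and dexamethasone and transfected with pGRHL2 or pcDNA3. RNA was harvested 48 h after transfection from 4 replicates per plasmid. pGRHL2 expressed flag-tagged GRHL2, an epithelial transcription factor, from the EEF1A1 promoter together with enhanced green fluorescent protein, whereas pcDNA3 was an empty vector, so that the insert, the promoter and the fluorescent protein cannot be told apart as the source of a difference. The cells were transiently transfected and belonged to 1 line, and the bulk RNA does not separate transfected from untransfected cells.

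Telomerase adds telomeric repeats to chromosome ends and consists of the reverse transcriptase TERT and an RNA template, TERC. The H/ACA proteins dyskerin (DKC1) and NOP10 bind this RNA, and NAF1 helps to assemble the particle. PARN, a poly(A)-specific ribonuclease, trims the adenosine tails that non-canonical poly(A) polymerases add to the RNA, which otherwise lead to its decay. In shelterin, TERF1 and TERF2 bind double-stranded telomeric DNA, POT1 binds the single strand, ACD (TPP1) carries POT1 and recruits telomerase, and TINF2 links them. Most adult somatic cells have little TERT transcript, whereas tumor cell lines commonly express it.

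Values are on a log2 scale, adjusted by the authors for transcript length. Library medians lay between 6.71 and 6.73, and the depth behind the values was unknown, so that no counting error could be computed. For each of the 17561 genes, same-numbered pGRHL2 and pcDNA3 libraries had the same mean for all 4 numbers. Same-numbered libraries were thus treated as 4 pairs, and in each pair the values of both plasmids mirror each other around the same mean. As a result, the groups do not overlap exactly where all 4 pairs differ in the same direction, however small the difference. GRHL2 itself had log2 values of 16.22 to 16.87 in pGRHL2 and of 6.61 to 7.25 in pcDNA3 libraries. All 10 hepatocyte markers examined were in the table, with mean values of 8.06 to 17.11. Of 4 leukocyte markers, LYZ had a mean of 13.27, at the 99.5th percentile of all genes, and PTPRC, CD3E and CD68 were not among the 17561 genes. LYZ differed by 0.06 ± 0.18 (SD over 4 pairs) between the plasmids, and its part in the results was not tested. Of 5 fibroblast and endothelial markers, 4 were present (COL1A2 was not), and the highest mean among them was 5.82.

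Levels were examined first, since they did not serve to choose the genes. On the length-adjusted log2 scale, the mean over 8 libraries was highest for NOP10 (10.81), DKC1 (10.56) and TERF2 (10.23), which lay at the 93.7th, 92.0th and 89.7th percentile of all genes. TINF2 (9.09), ACD (9.0), NAF1 (8.38), TERF1 (8.02) and POT1 (7.99) followed. PARN (6.03) and TERT (5.28) were the lowest, at the 44.8th and 40.0th percentile. Of the 9 neighbouring positions in this order, 6 had library values that did not overlap. The exceptions were TINF2 and ACD, TERF1 and POT1, and PARN and TERT, whose values crossed. Since pair means were equal for every gene, the library values of a gene spread only by its plasmid differences. Variation in level between replicates is thus not in these values, and the missing overlap is no replicate support for the order. The 5 shelterin genes among these 10 spanned 7.99 to 10.23, and all 5 had higher values than TERT in every library, with the same limit. Levels also depend on the mean transcript length used for the adjustment. In the annotation used here, this mean was 996 bases for TERF2 and 602 for NOP10, against 2996 and 988 for the longest transcript. The order between genes is therefore approximate, and TINF2 also shares exon bases with other genes.

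**Figure D1:**
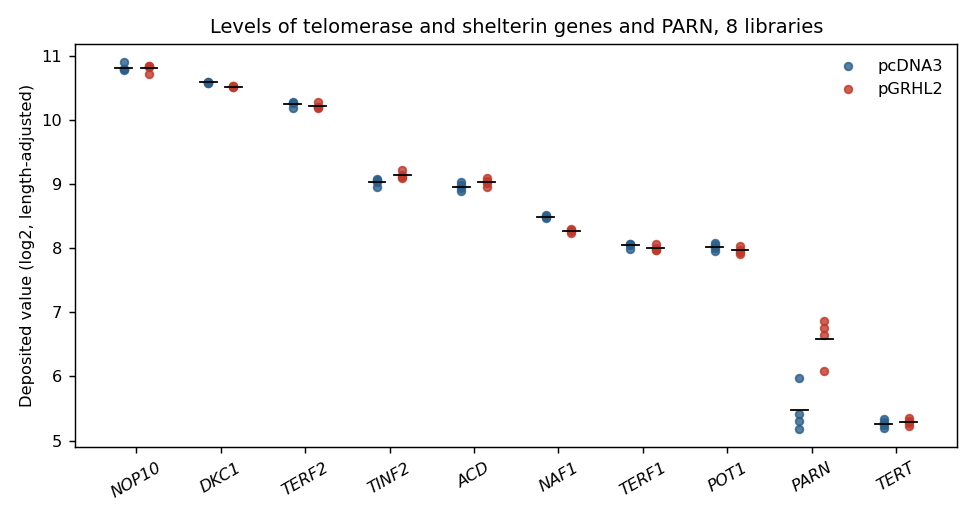
Deposited log2 values (vertical axis, length-adjusted) of the 10 genes in 4 pcDNA3 libraries (blue) and 4 pGRHL2 libraries (red), ordered by mean level, with black bars for group means. Genes range from 5.28 (TERT) to 10.81 (NOP10), and PARN is the gene with visibly spread points.

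TERT, on chromosome 5, had log2 values of 5.27, 5.22, 5.36 and 5.31 in pGRHL2 libraries 1 to 4. In pcDNA3 libraries 1 to 4 its values were 5.29, 5.33, 5.19 and 5.24. The groups overlapped, and TERT was higher in 2 of 4 pairs and lower in 2. The log2 fold change (FC, pGRHL2/pcDNA3) was 0.03 ± 0.12 (SD, n = 4 pairs), smaller than the spread between pairs, with a limma adjusted p of 0.868. Its sign changed without replicate 3, when the log2 FC was -0.0197. The rlog transformation used by the authors shrinks differences of genes with few reads, and the reads behind TERT are unknown.

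PARN lies on chromosome 16 of hg38, from 14435700 to 14632728 on the minus strand. In pGRHL2 libraries 1 to 4 its log2 values were 6.87, 6.08, 6.76 and 6.64. In pcDNA3 libraries 1 to 4 they were 5.18, 5.98, 5.30 and 5.42. The groups did not overlap, although pGRHL2 library 2 and pcDNA3 library 2 were close to each other. Pair differences were 1.69, 0.10, 1.46 and 1.22, which gave a log2 FC of 1.12 ± 0.71, or 2.17-fold. Without replicate 2 the log2 FC was 1.46, and without each of the others it was 0.93 to 1.08. PARN ranked 3rd among the 17561 genes by absolute log2 FC and 12th by the SD of its pair differences. In the count of calls by limma at an adjusted p under 0.05 over all genes, PARN made up 1 of 10, which is no test of PARN since this contrast chose it. The threshold was passed upwards by 1.69%, downwards by 0.501% and in either direction by 2.19% of genes. The call was lost with robust eBayes, without a trend in eBayes and without replicate 1, 3 or 4.

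**Figure D2:**
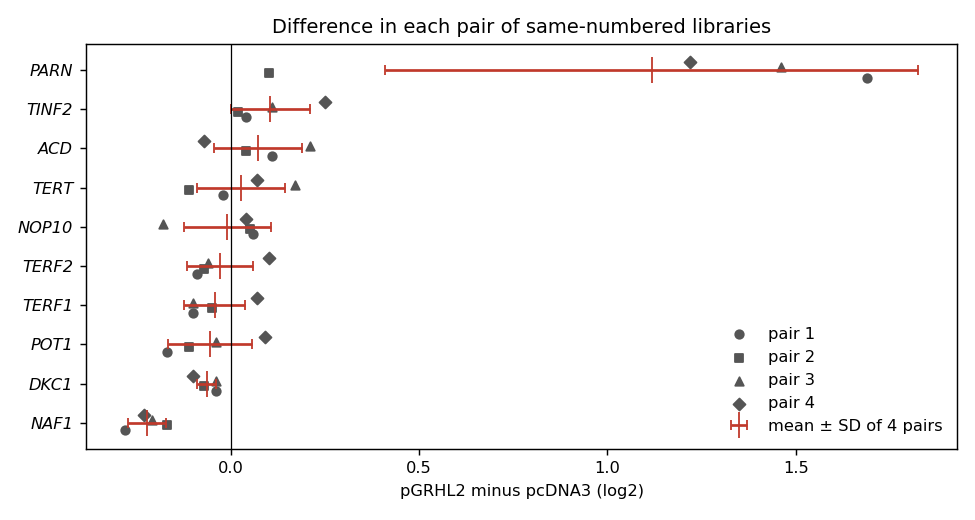
Difference between same-numbered pGRHL2 and pcDNA3 libraries (horizontal axis, log2) for each gene, with 1 grey symbol per pair and the mean ± SD of 4 pairs in red. PARN stands at 0.10 to 1.69, NAF1 at -0.28 to -0.17, and the other 8 genes between -0.18 and 0.25.

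The 300 bases around the RefSeq start of PARN (250 before and 50 after) are shown because PARN had the largest difference of the 10 genes. They lie at chr16:14630211-14630510 on the minus strand (GRCh38.p14). Capitals mark the only match to the GC box GGGCGG on either strand, here read as its reverse complement.
PARN: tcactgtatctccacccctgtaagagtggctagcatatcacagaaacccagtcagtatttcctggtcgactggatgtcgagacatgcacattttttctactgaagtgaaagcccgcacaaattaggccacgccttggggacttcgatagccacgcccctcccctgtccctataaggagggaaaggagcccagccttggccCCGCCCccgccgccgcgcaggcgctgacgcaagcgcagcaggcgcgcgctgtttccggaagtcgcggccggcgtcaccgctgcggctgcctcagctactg
The Grainyhead consensus AACCGGTT and its looser form AACCNGNTT, searched on both strands, had 0 matches in this window. Among 35116 RefSeq promoters of this length, 0.134% held the consensus, 2.11% the looser form and 45.0% the GC box. The looser form is a longer string, so it does not cover every match to the consensus. RefSeq windows were found for 7 of the 10 genes (TERT, PARN, DKC1, NOP10, POT1, TINF2 and ACD), and each had 0 matches to both Grainyhead forms and at least 1 GC box. An absent match says only that these letters are not in this window.

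Genes next to PARN were compared with it. BFAR, which encodes an apoptosis regulator, starts 0.2 kb beyond the outermost annotated start of PARN and is transcribed in the opposite direction. Its log2 FC was 0.03 ± 0.15 (SD over 4 pairs), with 0.869 as the adjusted p in limma, with pair differences of 0.06, -0.15, 0.01 and 0.22. The difference of PARN exceeded that of BFAR in 4 of 4 pairs, by 1.63, 0.25, 1.46 and 1.00. Since PARN was chosen for its difference in these libraries, this and the comparison with the other neighbours describe it and test nothing. Among the 4 nearest genes of the table on each side, the log2 FC ranged from -0.17 ± 0.43 (NOMO1) to 0.05 ± 0.05 (MIR193BHG). By limma 0 of 8 were called and 0 had an unadjusted p under 0.05, against 2.19% and 16.0% of all genes. The groups overlapped for each of these 8 genes.

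**Figure D3:**
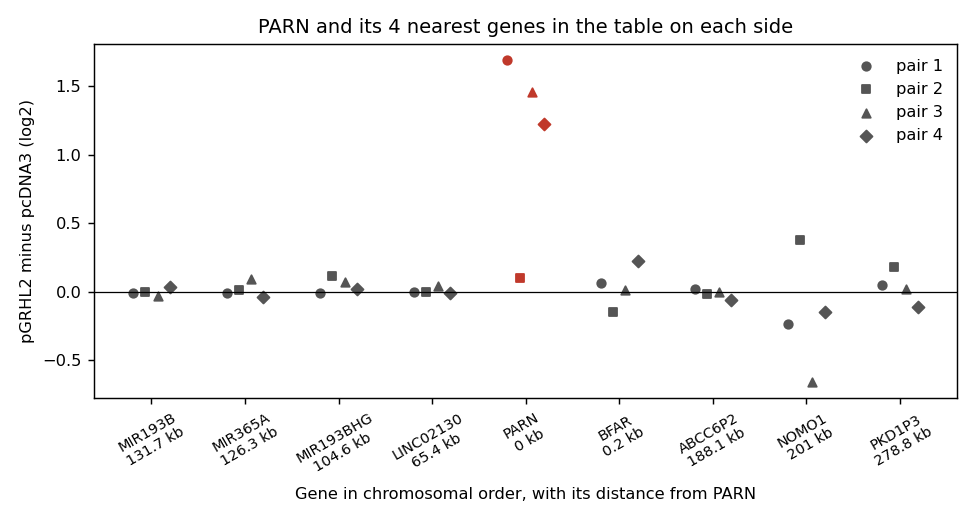
Pair differences (vertical axis, log2) of PARN (red) and of its 4 nearest genes in the table on each side (grey), in chromosomal order with the distance from PARN in kb. In pairs 1, 3 and 4 PARN lies above every neighbour, while in pair 2 it stands at 0.10, within the range of its neighbours.

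The longest PARN transcript also aligned over its whole length, at 100% identity, to an alternate contig of hg38 (chr16_KI270853v1_alt). Of the 9 other genes, 0 had such a copy. Those of BFAR, ABCC6P2, NOMO1 and PKD1P3, the neighbours on one side, aligned to the same contig over 100% of their length. Whether the index used for mapping held this contig is not given in the sources used here, and its part in the level or the difference of PARN was not tested.

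The genes with the pattern most like PARN were sought among the 30 other genes with an absolute log2 FC of at least 0.5. PARN and these 30 genes were all chosen by their difference between the plasmids in these libraries. A high r for genes that differ in the same direction thus follows in part from this choice, and is a description only. Pearson's r over the 8 libraries, which are 4 mirrored pairs, was 0.939 for HSPB8, a small heat shock protein, and 0.926 for ITGA3, an integrin subunit. It was 0.878 for PALM3, 0.875 for OLFML2A and 0.874 for GRHL2. HSPB8 was also least different in pair 2, with pair differences of 0.86, 0.43, 0.75 and 1.09. So was ITGA3, with 1.05, 0.75, 0.97 and 1.04, and narrowly OLFML2A, with 0.45 in pair 2 and 0.46 in pair 1. PALM3 was least different in pair 3 (0.49, against 0.60 in pair 2), and GRHL2 differed by 9.51 in pair 2 and by 8.97 in pair 1. The pair with the smallest PARN difference was thus not the pair with the smallest GRHL2 difference.

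Among the H/ACA proteins, NAF1 had the largest difference. NAF1 lies on chromosome 4 of hg38, from 163110073 to 163166890 on the minus strand, and encodes the assembly factor that is exchanged for GAR1 in the mature particle. Its log2 values were 8.24, 8.30, 8.28 and 8.27 in pGRHL2 libraries 1 to 4. They were 8.52, 8.47, 8.49 and 8.50 in pcDNA3 libraries 1 to 4. All pGRHL2 values lay below all pcDNA3 values, with a log2 FC of -0.22 ± 0.05 (SD, n = 4 pairs), or 0.858-fold. NAF1 did not pass the threshold in limma with the replicate block (adjusted p of 0.0821). It passed with arrayWeights (adjusted p of 0.0476), and over all alternatives its adjusted p ranged from 8.73e-04 to 0.348.

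DKC1, the pseudouridine synthase of H/ACA particles, had log2 values of 10.53, 10.52, 10.53 and 10.51 in pGRHL2 libraries 1 to 4. In pcDNA3 libraries 1 to 4 they were 10.58, 10.59, 10.58 and 10.60. The groups did not overlap, but the log2 FC was only -0.06 ± 0.03 (SD over 4 pairs), with 0.611 as the adjusted p in limma. Exons of DKC1 share 2.8% of their bases with small RNA genes hosted in it. NOP10 had log2 values of 10.84, 10.84, 10.72 and 10.83 in pGRHL2 and of 10.78, 10.79, 10.90 and 10.79 in pcDNA3 libraries 1 to 4. It was higher in 3 pairs and lower in pair 3. Its log2 FC was -0.01 ± 0.12, with 0.971 as the adjusted p in limma.

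Of the 5 shelterin genes among the 10, 0 were called by limma, where 2.19% of all genes were. Likewise, 0 had an unadjusted p under 0.05, where 16.0% of all genes did. With 5 genes, such counts say little. TINF2 had log2 values of 9.11, 9.10, 9.14 and 9.22 in pGRHL2 libraries 1 to 4, and of 9.07, 9.08, 9.04 and 8.96 in pcDNA3 libraries 1 to 4. It was the only shelterin gene whose groups did not overlap. Its log2 FC was 0.11 ± 0.10 (SD over 4 pairs), with 0.460 as the adjusted p in limma. As 27.9% of its exon bases are shared with genes on the opposite strand, chiefly GMPR2, and counting was unstranded, its value is uncertain. ACD, which binds TINF2 and POT1, had log2 values of 8.96 to 9.10 in pGRHL2 and of 8.89 to 9.03 in pcDNA3 libraries, with a log2 FC of 0.07 ± 0.12. The telomeric DNA-binding proteins TERF1, TERF2 and POT1 had log2 FC of -0.04 ± 0.08, -0.03 ± 0.09 and -0.06 ± 0.11. Each of these was lower in pairs 1 to 3 and higher in pair 4, by 0.07, 0.10 and 0.09.

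Groups did not overlap for 4 of the 10 genes, 2 higher (PARN and TINF2) and 2 lower (NAF1 and DKC1) in pGRHL2. Over the whole table this held for 24.0% of genes, 13.4% being higher and 10.5% lower. These are the genes with the same sign in all 4 pairs, so the count adds nothing to the signs. Without PARN, the median log2 FC of the other 9 genes was -0.029, against 0.002 over all genes, and 1 of the 9 (NAF1) had an unadjusted p under 0.05, as did 16.0% of all genes. The absolute differences of these 9 genes had a median of 0.056, against 0.040 over all genes.

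Other genes of telomere maintenance were examined as a list of 49 genes chosen by function, of which 47 were in the table. TERC and TEN1 were not analysed here. By limma, 0 of the 47 genes were called higher or lower, against 2.19% of all genes in either direction. An unadjusted p under 0.05 was found for 8 of them, against 16.0% of all genes. The median log2 FC of the 47 was -0.045, against 0.002 over all genes. Groups did not overlap for 14 genes that were lower and for 0 that were higher in pGRHL2, whereas 10.5% and 13.4% of all genes did so. In values corrected for trends with base composition, transcript length and expression level, 11 genes were lower and 1 was higher in all 4 pairs, and the median was -0.023. Over all genes, 11.6% were lower and 10.9% higher in all 4 pairs in these values.

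The genes of this list that act in tailing and decay of the telomerase RNA made up 6 of these 14 genes, out of 9 measured. Over all genes, 10.5% were lower without overlap. This group was singled out after its values were seen, so the count is a description. TENT4A and TENT4B, the poly(A) polymerases that tail the RNA, had log2 FC of -0.20 ± 0.06 and -0.13 ± 0.06 (SD, n = 4 pairs). ZCCHC8, a subunit of the nuclear exosome targeting complex, had a log2 FC of -0.18 ± 0.05, and the RNA helicase DHX36, of which 63.6% of the transcript also aligned to an alternate contig, one of -0.21 ± 0.18. EXOSC10 and MTREX, the nuclear exosome nuclease and its helicase, had log2 FC of -0.08 ± 0.05 and -0.08 ± 0.07. The log2 FC of TOE1, a deadenylase of small nuclear RNAs, was 0.01 ± 0.14. RBM7 and ZC3H18 had log2 FC of -0.07 ± 0.12 and 0.04 ± 0.08, and their groups overlapped, as did those of TOE1. DHX36 was named as the largest difference of its group, and the others after their values were seen. None of the 9 passed the limma threshold, which 2.19% of all genes passed, with adjusted p of 0.117 or more in each case. In the trend-corrected values, 3 of the 9 were lower in all 4 pairs, as were 11.6% of all genes.

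**Figure D4:**
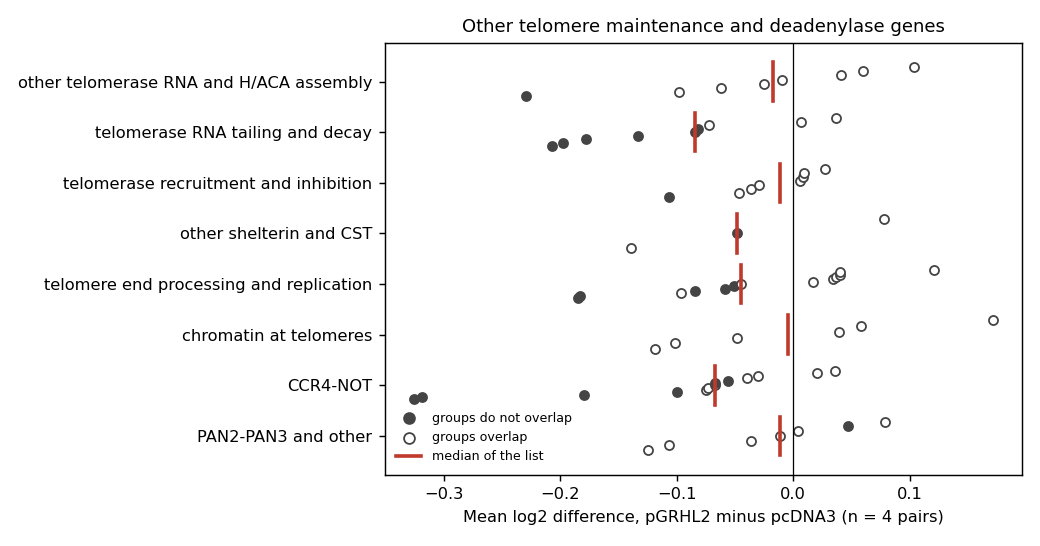
Mean log2 FC of 4 pairs (horizontal axis) for 47 other telomere maintenance genes in 6 groups and 20 deadenylase genes in 2 groups, with filled symbols where the pGRHL2 and pcDNA3 values do not overlap and red bars for group medians. All filled symbols but 1 (PNLDC1) lie below 0, and the tailing and decay group has the lowest median, at -0.084.

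In the other groups of the list, the largest absolute difference was examined. WRAP53 (TCAB1), which brings telomerase RNA to Cajal bodies, had log2 values of 8.22 to 8.35 in pGRHL2 and of 8.47 to 8.60 in pcDNA3 libraries. Its log2 FC was -0.23 ± 0.12 (SD over 4 pairs), with 0.109 as the adjusted p in limma. WRN, a helicase acting at telomeres and replication forks, had a log2 FC of -0.19 ± 0.13, and 0.189 as the adjusted p in limma. SMG5, a factor of nonsense-mediated decay, had a log2 FC of -0.11 ± 0.20, which arose from pair 4 alone. TERF2IP (RAP1), the shelterin protein that binds TERF2, had a log2 FC of -0.14 ± 0.17, and SP100, a nuclear body protein, one of 0.17 ± 0.21. Both had overlapping groups and limma adjusted p of 0.382 and 0.346.

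PARN is also a deadenylase, so 20 genes of the cytoplasmic deadenylase complexes and related enzymes were compared with it. By limma 0 of the 20 were called, against 2.19% of all genes. An unadjusted p under 0.05 was found for 3 of them, as for 16.0% of all genes. The median log2 FC of the 20 was -0.061. With groups that did not overlap, 6 were lower and 1 was higher, as were 10.5% and 13.4% of all genes. TOB1, an adaptor of the CCR4-NOT complex, had log2 FC of -0.33 ± 0.26 (SD over 4 pairs), with 0.116 as the adjusted p in limma. ANGEL2 had a log2 FC of -0.13 ± 0.11, and PNLDC1, a relative of PARN with a mean value of 2.91, one of 0.05 ± 0.02. PNLDC1 and ANGEL1 were named after their values were seen. The highest log2 FC of the 20 genes was 0.08, against 1.12 for PARN, which was chosen for its difference. In pair 2, ANGEL1 differed by 0.21, more than the 0.10 of PARN. In the trend-corrected values, 3 of the 20 were lower and 1 was higher in all 4 pairs, against 11.6% and 10.9% of all genes. The median of the 20 was then -0.013.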

How the data were processed

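RNA-seq values of 8 HepG2 libraries were analysed, grouped by the sample labels. The authors mapped reads to hg38, counted them over exons without strand at a minimum alignment quality of 10, and divided DESeq2 rlog values by mean transcript length. For the authors' pipeline, the labels name HISAT2 2.2.1, HTSeq 0.9.1 and DESeq2 1.40.2. The deposited table is named FPKM but holds log2 values (3.71% below 0). One stray character was removed (1 value), and 0 columns belonged to other samples.

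Same-numbered libraries have identical means within 1e-06, so their deviations mirror each other and the correlation check of pairing is void. The replicate number was therefore a block in limma 3.58.1 (R 4.3.3; lmFit, eBayes with trend), which leaves 3 residual degrees of freedom instead of 6, with Benjamini-Hochberg adjustment over 17561 genes at 0.05. On simulated data, the share of false calls exceeded the nominal rate with the block and was larger still without it, and part of the small changes was missed, so calls near the threshold are uncertain. With 4 pairs, an exact test of single genes cannot reach 0.05 and was not run. The study describes its replicates as independent.

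The genes and lists were chosen with earlier results of these data known. Named were all 10 genes, GRHL2, called list genes, the largest difference of each list group, 4 neighbours of PARN on each side, and the 5 genes correlating best with PARN. Further list genes were named after their values were seen, as stated beside them, and markers to check the cell type. Annotation was GENCODE release 44 (99.9% of genes matched). The longest transcripts of 111 genes were aligned to alternate contigs with minimap2 2.31-r1302 (98% identity or more; whole-length coverage is given as a percentage). Other settings tried were no block, robust eBayes, no trend in eBayes, arrayWeights, equal medians, a mean value of at least 5, an adjusted p under 0.01, leaving out each replicate, and removal of trends on base composition, length and level (splines with 5 degrees of freedom).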

Additional observations from a re-analysis of the deposited data

Results flagged for a closer look

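In 31 genes examined, 4 had 1 pair far from the other 3 by Dixon's criterion for 4 values, where chance gives about 1 in 20. Because both plasmids mirror each other within a pair, such a gap appears in both. NOP10 differed by -0.18 in pair 3 and by 0.04 to 0.06 in the others. In pair 4, SMG5 stood at -0.41 while pairs 1 to 3 were between -0.01 and 0. TERF2IP stood at 0.11 in that pair and between -0.25 and -0.19 elsewhere. OLFML2A stood at 0.71 in that pair and between 0.45 and 0.48 elsewhere. PARN, whose smallest difference was 0.10 in pair 2, did not meet this criterion.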

How the results depend on the processing

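PARN was higher in pGRHL2 under every alternative run, with a log2 FC from 0.9257 (without replicate 1) to 1.4571 (without replicate 2), while the number of the 10 genes called higher fell from 1 to 0 with robust eBayes, without a trend in eBayes and at an adjusted p under 0.01, and was 0 to 1 when replicates were left out. It was 0 without replicate 1, replicate 3 or replicate 4. The number called lower rose from 0 to 1 (NAF1) with arrayWeights and without the replicate block. Without the replicate block, which ignores that pair means were made equal, 1821 genes were higher and 1427 lower over the whole table, 10 telomere maintenance genes were lower, and 1 deadenylase gene was higher and 4 were lower. WRAP53, DHX36, WRN and TOB1 were among them. Over all genes, the higher and lower calls numbered 297 and 88 with the block, 4 and 2 without a trend in eBayes, 503 and 221 with arrayWeights, 77 and 10 at an adjusted p under 0.01, and 79 to 156 and 8 to 68 when replicates were left out. Higher calls numbered 63 with a mean value of at least 5 (fewer genes tested) and 169 when trends on base composition, length and level were removed in the blocked fit. The latter also moved the median log2 FC of the telomere maintenance list to -0.0227 and that of the deadenylase list to -0.0126. For the remaining changes the cause was not tested.

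The sign of TERT changed without replicate 3 (range when replicates were left out, -0.0197 to 0.0723) and with trends removed (-0.0029). NOP10 was positive with arrayWeights (0.0101), with trends removed (0.0272) and without replicate 3 (range -0.0321 to 0.0490), and TERF1 was 0.0031 with trends removed. LINC02130 was -0.0130 with trends removed and between -0.0028 and 0.0132 with a replicate left out. Other signs that changed when replicates were left out were those of MIR193B (-0.0129 to 0.0074), MIR365A (-0.0158 to 0.0283), BFAR (-0.0292 to 0.0938), ABCC6P2 (-0.0255 to 0.0006) and PKD1P3 (-0.0098 to 0.0858). All these values were smaller than the spread between pairs. Read depth is unknown, which limits statements on weakly expressed genes such as TERT.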

Other observations

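Regulators of TERT transcription were examined as a list of 11 genes chosen by function, all of which were in the table. By limma 0 of the 11 were called, where 2.19% of all genes were, 4 had an unadjusted p under 0.05, where 16.0% of all genes did, and their median log2 FC was -0.046. MAX, the partner of MYC, had a log2 FC of 0.17 ± 0.06 (SD over 4 pairs), with 0.183 as the adjusted p in limma, and its groups did not overlap. MYC, which activates TERT, had a log2 FC of -0.06 ± 0.15. GABPB1 and ETS2 had log2 FC of -0.19 ± 0.15 and -0.19 ± 0.17, lower in pairs 1 to 3 and higher in pair 4, by 0.04 and 0.03. MAX, MYC, GABPB1 and ETS2 were named after their values were seen.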
